A study of Homo sapiens with 42 samples.

Results

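Late gained loops were 697 of the 33914 chromatin loops listed for K562 cells, and 697 of the 22795 loops with a mean raw count of 10 or more. They were chosen from the contact counts of 12 libraries, each scaled to 1000000 contacts over those 22795 loops. In a late gained loop every library at 72 h of phorbol ester lay above every library at 0 h and 6 h, the mean at 72 h was at least 1.5 times the mean at 0 h, and the mean at 6 h was 0.87 to 1.15 times that at 0 h. This rule took 3.06% of the loops past the count minimum, and its first condition alone took 1774 of them (7.78%). Because the rule used all 12 libraries and every contrast between the times, the changes of its members are described here without a test, and tests are given only for other loops or for replicates that a choice did not use.

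K562 is an established human leukemia line, wild-type per the labels, and the cells were crosslinked with formaldehyde and profiled by in situ Hi-C, which joins DNA ends that lie close together in the nucleus and reads the joined pairs. All treated cells received 25 nM PMA (phorbol 12-myristate 13-acetate), given to drive them toward megakaryocytes, for 6 h or 72 h with changes of medium on the way, and the 0 h cells were the untreated start. The 42 samples, 14 at each time, were runs of 4 biological replicates per time, and their counts were summed to 1 library per time and replicate. No arm kept for 6 h or 72 h without PMA was among the samples, so the agent and the time in culture cannot be told apart. All groups come from 1 cell line, whose genome is rearranged and of uneven copy number, and the labels do not say whether the biological replicates were separate cultures, so p-values measure the spread between these libraries only. The table holds contacts and no expression, so the labelled cell type and its treated state could not be checked against marker genes.

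Libraries held between 736929 and 1472197 contacts in all loops. Replicates 3 and 4 agreed within sampling noise at 0 h (p = 0.103, chi-square test of the counts over 20369 loops) and at 72 h (p = 0.474, over 23803 loops), whereas every other pair at those times differed. At these 2 times they count as 1 sample in each mean ± SD (n = 3). At 6 h they differed slightly (p = 0.0484 by that test). They stay apart there, which leaves n = 4. Ratios between times use the means of the 4 libraries, as the rule does. The fit of all 12 libraries keeps replicates 3 and 4 apart at every time, so its SEs and p-values may be too small.

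A chromatin loop is a pair of distant positions that meet more often than their neighbourhood. Many loops form where cohesin extrudes chromatin until it is stopped by CTCF bound at the anchors, and others join promoters to enhancers. PMA activates protein kinase C in place of diacylglycerol, and in K562 cells the MAP kinase and AP-1 response that ensues precedes growth arrest, adhesion and the appearance of megakaryocyte features. Early response genes act within hours, and the differentiated state takes days.

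Promoters that lay in late gained anchors are the sequences at hand that tie these loops to genes. RefSeq windows of 250 bases before to 50 bases after a transcription start were available for 15843 genes, and 126 windows of 107 genes started in a late gained anchor. Motifs were searched on both strands: AP-1 as TGANTCA, NFE2 and small MAF as TGC directly before the AP-1 letters (so that each such match is also an AP-1 match), GATA as AGATAA, RUNX as TGTGGT, and the CTCF core as CC, any 3 bases, AGG, any base and GGC. The share of windows with a match is given beside that of the 4779 windows in an anchor of any loop past the minimum and that of all 22199 windows. Of the 126 windows, 7 held AP-1 (5.56%, beside 5.36% and 6.15%), 1 held NFE2 and MAF (0.794%, beside 0.398% and 0.320%), 12 held GATA (9.52%, beside 7.30% and 7.91%), 17 held RUNX (13.5%, beside 10.0% and 11.3%) and 6 held the CTCF core (4.76%, beside 6.80% and 5.54%). These shares are descriptions of letters in the windows. The windows printed here, 5′ to 3′ in GRCh38.p14 with motif matches in capitals, are those of DUSP10 (chr1:221742040-221742339, minus strand), SPRY2 (chr13:80339610-80339909, minus) and TFPI2 (chr7:93890704-93891003, minus), which lie at loops with large ratios, of THBS1 (chr15:39580829-39581128, plus), a platelet gene of the fixed lists, and of BCL6 (chr3:187745419-187745718, minus) and LPP (chr3:188212462-188212761, plus), which belong to the largest group of late gained loops.
DUSP10: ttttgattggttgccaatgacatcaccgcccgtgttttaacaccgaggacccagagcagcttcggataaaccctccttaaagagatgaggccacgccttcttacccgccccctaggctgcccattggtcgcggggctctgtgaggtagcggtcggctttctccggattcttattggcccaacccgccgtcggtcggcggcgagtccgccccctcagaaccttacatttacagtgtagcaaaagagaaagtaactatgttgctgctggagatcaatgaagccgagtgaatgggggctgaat
SPRY2: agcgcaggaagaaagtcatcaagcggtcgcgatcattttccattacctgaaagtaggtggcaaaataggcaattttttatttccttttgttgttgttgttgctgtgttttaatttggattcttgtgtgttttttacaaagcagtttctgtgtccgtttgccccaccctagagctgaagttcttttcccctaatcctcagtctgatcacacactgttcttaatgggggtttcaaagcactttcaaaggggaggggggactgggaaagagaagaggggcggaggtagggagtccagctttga
TFPI2: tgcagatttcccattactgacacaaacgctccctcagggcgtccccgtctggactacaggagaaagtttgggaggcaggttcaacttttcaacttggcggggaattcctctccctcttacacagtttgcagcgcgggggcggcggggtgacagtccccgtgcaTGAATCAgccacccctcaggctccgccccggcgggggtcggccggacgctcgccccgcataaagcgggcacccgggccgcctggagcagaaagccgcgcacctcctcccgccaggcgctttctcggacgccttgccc
THBS1: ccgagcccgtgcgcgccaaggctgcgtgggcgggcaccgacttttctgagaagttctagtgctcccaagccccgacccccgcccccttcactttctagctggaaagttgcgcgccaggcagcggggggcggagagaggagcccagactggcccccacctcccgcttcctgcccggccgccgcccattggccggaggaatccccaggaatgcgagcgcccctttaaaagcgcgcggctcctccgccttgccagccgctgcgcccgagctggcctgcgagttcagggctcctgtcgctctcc
BCL6: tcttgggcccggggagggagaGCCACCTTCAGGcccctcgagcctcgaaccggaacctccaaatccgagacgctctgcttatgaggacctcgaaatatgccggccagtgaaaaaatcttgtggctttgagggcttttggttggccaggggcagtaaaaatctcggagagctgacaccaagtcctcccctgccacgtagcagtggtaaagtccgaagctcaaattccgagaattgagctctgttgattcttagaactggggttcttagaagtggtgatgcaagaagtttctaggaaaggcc
LPP: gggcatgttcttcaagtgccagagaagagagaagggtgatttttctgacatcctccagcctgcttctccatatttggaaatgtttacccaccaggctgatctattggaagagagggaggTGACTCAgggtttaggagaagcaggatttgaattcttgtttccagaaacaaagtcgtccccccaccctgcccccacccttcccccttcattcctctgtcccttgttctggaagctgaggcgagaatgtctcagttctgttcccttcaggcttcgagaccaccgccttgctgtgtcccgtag
The capitals mark an AP-1 match in the TFPI2 and LPP windows and a CTCF core match, read from the opposite strand, in the BCL6 window. A second LPP window in the same anchor (chr3:188212646-188212945, plus), which overlaps the one shown, holds no AP-1 match. None of the 5 motifs was found in the DUSP10, SPRY2 or THBS1 windows.

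Across the 697 late gained loops the median scaled count before treatment was 22.2, and it was 22.8 after 6 h and 40.1 after 72 h. The median ratio of 72 h to 0 h was 1.78 and the largest 3.46. Relative to a loop's own 0 h mean, the median over the loops was 0.97 to 1.04 in the 4 libraries at 0 h, 1.00 to 1.11 at 6 h and 1.74 to 1.82 at 72 h. Among the 6 h libraries replicate 2 had the highest median, 1.11, and replicate 4 the lowest, 1.00. These loops took 1.83% to 1.96% of the contacts past the minimum at 0 h, 1.91% to 2.08% at 6 h and 3.29% to 3.45% at 72 h. The rule itself asked for the times to be apart, set a floor on the step and took loops on which the libraries agreed, so the values within replicates describe the choice. In replicates 1 and 2 alone the median ratio was 1.80 at 72 h and 1.06 at 6 h, and in replicates 3 and 4 alone 1.78 and 1.01. Single loops were less steady at 6 h: within replicates 1 and 2 their 6 h ratios ran from 0.489 to 2.26, and within replicates 3 and 4 from 0.413 to 1.80. The median late gained loop had a mean raw count of 28 contacts per library. Counting error alone gives 28 contacts an exact Poisson interval, at 95%, from 18.6 to 40.5.

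**Figure D1:**
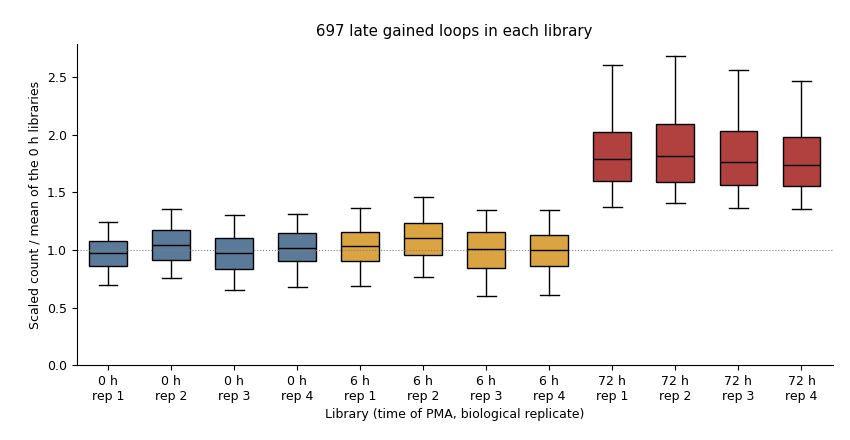
Scaled count of each of the 697 late gained loops divided by its mean over the 0 h libraries, in the 12 libraries (boxes: quartiles with the median; whiskers: 5th to 95th percentile). Medians lie at 0.97 to 1.04 at 0 h, at 1.00 to 1.11 at 6 h and at 1.74 to 1.82 at 72 h.

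The largest ratio belonged to loop22802 on chromosome 11 (chr11:128290001-128300000 with chr11:128440001-128450000, hg38), 150 kb long, with no protein-coding gene in or between its anchors. It had 12.1, 12.4, 18.4 and 12.4 scaled counts in replicates 1 to 4 at 0 h, 12, 25.4, 14.3 and 6.05 at 6 h, and 53.9, 52.9, 42 and 42.5 at 72 h. Its 6 h libraries were the most scattered, and the lowest 72 h library was 1.65 times the highest earlier one. The 0 h mean was 13.3 ± 1.83 (SD, n = 3), the 6 h mean 14.4 ± 8.09 (SD, n = 4) and the 72 h mean 49.7 ± 6.47 (SD, n = 3), a ratio of 3.46. A longer late gained loop of the same chromosome was loop22794 (920 kb, from chr11:128030001-128040000 to chr11:128950001-128960000). It spanned 5 protein-coding genes, KCNJ1, KCNJ5, TP53AIP1, ETS1 and FLI1, and had no gene end in an anchor. ETS1 and FLI1 are both ETS transcription factors, of which FLI1 is required for normal megakaryocytes. loop22794 was weaker, with 6.14 ± 0.754 scaled counts at 0 h, 6.01 ± 1.84 at 6 h and 17.7 ± 2.33 at 72 h (ratio 2.89). Its mean raw count of 10.25 was just above the minimum of 10.

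The next loop, loop16165 on chromosome 7 (chr7:54990001-55000000 with chr7:55250001-55260000, 260 kb), enclosed EGFR, the epidermal growth factor receptor. Its scaled counts were 19.9, 23.9, 12.3 and 22.5 at 0 h, 19.96, 23.4, 21.4 and 18.1 at 6 h, and 75.5, 52.9, 64.5 and 68.4 at 72 h. No other late gained loop had so wide a gap between the times, the lowest 72 h library being 2.22 times the highest earlier one. Its ratio was 3.33, from 20.4 ± 3.27 (SD, n = 3) before treatment to 64.96 ± 11.4 (SD, n = 3) after 72 h.

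The 4 loops that follow were less deeply counted or longer. loop5271 on chromosome 3 reached 2810 kb, over ARPP21 and STAC, and its scaled counts were 7.10, 9.55, 8.59 and 9.01 at 0 h, 7.98, 8.78, 5.72 and 10.9 at 6 h, and 20.7, 31.1, 28 and 28.7 at 72 h (ratio 3.17). loop10159 on chromosome 4 joined the body of FHIP1A to that of FBXW7, the substrate receptor of a ubiquitin ligase, with 7.81, 11.5, 3.68 and 4.50 at 0 h, 12, 7.81, 5.72 and 3.63 at 6 h, and 22.5, 23.9, 22.6 and 13.9 at 72 h (3.02). Its replicate 4 at 72 h stood apart from the others and only 1.16 times above the highest earlier library. loop25067 on chromosome 13, from within COG6 past FOXO1, a forkhead transcription factor, had 11.4, 4.77, 8.59 and 7.88 at 0 h, 12, 10.7, 5.72 and 3.63 at 6 h, and 16.2, 24.9, 19.4 and 36.1 at 72 h (2.96). loop16104 on chromosome 7, ending in the body of the transporter gene ABCA13, had 8.52, 14.3, 14.7 and 15.8 at 0 h, 16, 20.5, 7.15 and 9.67 at 6 h, and 34.2, 47.7, 35.5 and 38.8 at 72 h (2.93). In loop25067 the 72 h libraries differed among themselves by more than their distance from the earlier ones, and in loop16104 they did not. The other 8 of the 15 largest ratios, besides loop22794, were loop2877, loop3949, loop19685, loop23363, loop11006, loop21122, loop29968 and loop19687, with ratios of 2.72 to 2.85 and 6 h ratios of 0.97 to 1.12. Among them loop29968 on chromosome 17, 80 kb with no protein-coding gene in or between its anchors, was the most deeply counted: 40.2 ± 3.37 at 0 h, 45.5 ± 7.18 at 6 h (n = 4) and 115 ± 11.7 at 72 h (SD, n = 3 at 0 h and 72 h). Of the 15, loop5271, loop10159, loop25067, loop22794, loop2877, loop3949, loop19685 and loop23363 had mean raw counts of only 10.0 to 14.6. The authors' deposited class of each of these was static. Over all late gained loops the median ratio was 1.93 at mean raw counts of 10 to 20 and 1.61 at 80 or more.

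**Figure D2:**
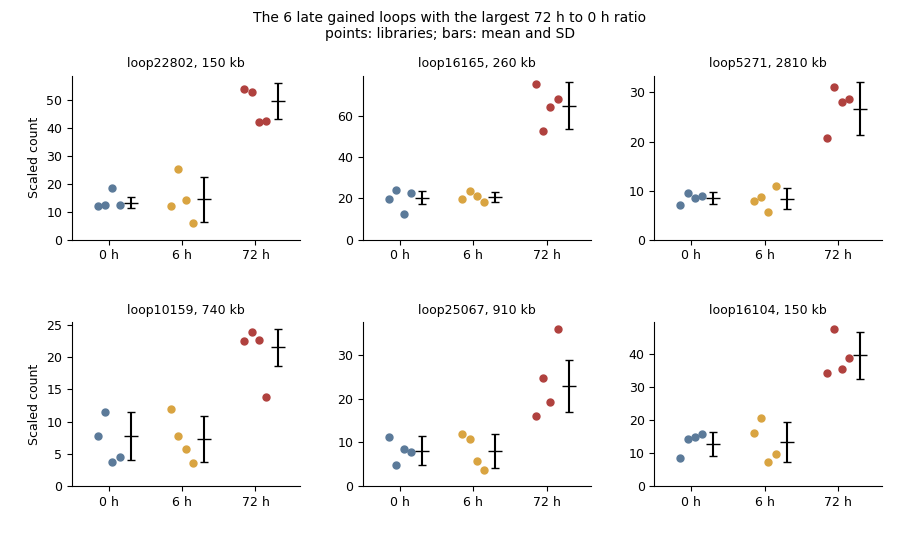
Scaled count (y axis) at 0 h, 6 h and 72 h (x axis) of the 6 late gained loops with the largest ratio of 72 h to 0 h. Points are the 4 libraries, and the bar beside them is the mean ± SD (n = 3 at 0 h and 72 h, n = 4 at 6 h); the ratios run from 2.93 in loop16104 to 3.46 in loop22802.

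Of the 697 late gained loops, 193 (27.7%) had an end of a protein-coding gene in an anchor of 10 kb, 22 of them in both anchors. An end is either end of a gene, so it need not be a transcription start. Of these the 15 with the largest ratios were named by rule. Among the 15, a start of the gene named lay in an anchor only at DUSP10, SPRY2, NR3C1, TFPI2, C10orf120 and PSMD6. At DUSP10, a phosphatase that inactivates the stress-activated MAP kinases, loop2931 (chr1:221740001-221750000 with chr1:221830001-221840000) had 38.3, 59.2, 60.1 and 50.7 scaled counts at 0 h, 53.9, 43.9, 67.2 and 71.3 at 6 h, and 128, 117, 133 and 129 at 72 h. The 72 h libraries were close together and all far above the earlier ones, with a ratio of 2.43. At SPRY2, an inhibitor of receptor tyrosine kinase signalling to MAP kinases, loop25758 (chr13:80220001-80230000 with chr13:80330001-80340000) had 10.6, 21, 20.9 and 15.8 at 0 h, 21, 18.5, 8.58 and 26.6 at 6 h, and 48.5, 31.1, 45.2 and 39.8 at 72 h. Here replicate 4 at 6 h came near replicate 2 at 72 h, which was 1.17 times higher. The ratio was 2.41. DUSP4, a nuclear MAP kinase phosphatase, is named from the fixed list of AP-1 and immediate early genes and not for the size of its ratio, and loop17359 there went from 23.7 ± 7.07 at 0 h (SD, n = 3) and 19.9 ± 5.87 at 6 h (n = 4) to 42.5 ± 8.34 at 72 h (n = 3). Replicate 2 of loop17359 had 31.5 at 0 h and 33.2 at 72 h, which was only 1.05 times the highest earlier library. From the same DUSP4 anchor, loop17360 and loop17361 were not called at 72 h in the edgeR fit given below (log2 -0.03 and -0.33). No transcription start of DUSP4 lay in the anchors of loop17359. At a transcription start of NR3C1, the glucocorticoid receptor gene, loop12633 went from 17 ± 2.90 and 18.3 ± 2.39 to 38 ± 4.25 in the same order. The gene end that put loop12633 among the 15 was that of LOC128966704, and no end of NR3C1 lay in its anchors.

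More of the 15 are given by their means. TFPI2 encodes a secreted inhibitor of serine proteases, and its loop16437 had 15.7 ± 0.678 scaled counts at 0 h, 17 ± 5.77 at 6 h and 35.3 ± 1.07 at 72 h (SD, n = 3, 4 and 3). From the same anchor loop16436 reached a nearer partner, with 31.9 ± 5.58, 28 ± 10.7 and 59.1 ± 8.91. TNC encodes tenascin C, an extracellular matrix protein, and loop19682 there went from 32.9 ± 1.67 and 34.8 ± 5.57 to 79.7 ± 5.75. PALLD encodes palladin, which binds actin, and loop10510 there went from 17.3 ± 1.77 and 17.3 ± 5.08 to 42.3 ± 4.72. MYO10 encodes the unconventional myosin of filopodia, and loop11006 there went from 13 ± 1.40 and 14.4 ± 2.99 to 37.1 ± 5.26. At ANO6, which encodes a phospholipid scramblase of platelets, and ARID2, a chromatin remodelling subunit, at its other end, loop23627 went from 13.3 ± 3.99 and 12.5 ± 2.11 to 32.5 ± 7.54. In all 6 the 6 h mean, which the rule held near 0 h, lay within 1 SD of the 0 h libraries or 1 of its own from the 0 h mean. The other loops among the 15 gene-end loops with the largest ratios lay at C10orf120, MTM1 (a phosphoinositide phosphatase), MEPE (a bone matrix protein), PSMD6 (a proteasome subunit), SUCLG2 (a subunit of a citric acid cycle enzyme), VWA2 and LOC124903470, with ratios of 2.23 to 2.73.

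Lists of genes of the pathways and cell types concerned were read next, by the loops with a gene end in an anchor. Late gained loops were 1 of 15 at megakaryocyte and platelet genes, 1 of 39 at AP-1 and immediate early genes, 1 of 20 at adhesion and cytoskeleton genes, and 0 of 12 at erythroid, 0 of 17 at protein kinase C and diacylglycerol, 0 of 14 at monocyte and macrophage and 0 of 12 at loop machinery genes. The rule takes 3.06% of all loops past the count minimum, so counts of 0 or 1 in lists of this size are near that background. The 3 loops lay at THBS1, DUSP4 and CD44. THBS1 encodes thrombospondin 1, a matrix protein stored in platelet granules, and loop27668 (chr15:39390001-39400000 with chr15:39580001-39590000) had 41.9, 40.1, 50.3 and 51.8 scaled counts at 0 h, 47.9, 45.9, 41.5 and 53.2 at 6 h, and 79.1, 62.2, 77.5 and 98 at 72 h. Its 72 h libraries varied more than the earlier ones and did not overlap them (ratio 1.72). Beside it loop27669 and loop27670, whose anchors lie within 10 kb of THBS1, went from 0 h means of 45.1 and 43.3 to ratios of 1.87 and 2.23. CD44 encodes the hyaluronan receptor, and loop21698 there had 41.9, 38.2, 50.3 and 74.3 at 0 h, 70.9, 48.8, 35.7 and 66.5 at 6 h, and 88.1, 89.2, 75.3 and 85.1 at 72 h. Replicate 4 at 0 h, at 74.3, came within 1.01 times of the lowest 72 h library. No transcription start of CD44 lay in the anchors of loop21698. Its 3 tested neighbours were all lost at 72 h in the fit given below.

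Counted by transcription starts, a late gained loop also reached RUNX1, a transcription factor needed for megakaryocytes: loop32175 (960 kb) had 11.4, 15.3, 23.3 and 18 scaled counts at 0 h, 11, 14.6, 24.3 and 21.8 at 6 h, and 27.9, 28, 39.8 and 36.1 at 72 h. Replicates 3 and 4 were higher than 1 and 2 at every time, and within each pair the 72 h libraries stood above the others. Within 10 kb of an anchor, further late gained loops lay at MEIS1 (loop3724, ratio 2.40), MYC (loop18688, 2.37), DUSP5 (loop20965, 1.63), DUSP6 (loop24228, 1.75), RND3 (loop4188, 1.86) and CDC42EP3 (loop3509, 1.53). How many of all loops lay within 10 kb of the list genes was not counted. An end of any protein-coding gene lay that near in 53.1% of late gained loops and 63.6% of all loops past the minimum. In the fit over all loops tested by edgeR's quasi-likelihood test, with Benjamini-Hochberg adjustment at 0.05, the 15 loops at megakaryocyte and platelet genes counted 4 gained and 2 lost at 72 h with a median log2 change of -0.06, and the 12 at erythroid genes counted 0 gained and 10 lost with a median of -0.53. Over all 24132 loops tested, 16.7% were gained and 16.9% lost, 33.6% in all, with a median of 0.01. The 39 loops at AP-1 and immediate early genes counted 7 gained and 7 lost (median -0.05) and the 20 at adhesion and cytoskeleton genes 4 gained and 8 lost (-0.23). Monocyte and macrophage genes counted 2 gained and 5 lost of 14 (-0.20), protein kinase C and diacylglycerol genes 2 gained and 4 lost of 17 (-0.07), and loop machinery genes 0 gained and 4 lost of 12 (-0.29). Of the loops with an end of MYC in an anchor none was gained at 72 h. Among them loop18707, loop18709 and loop18717 were lost (log2 -0.51, -0.60 and -0.87). With an end of MEIS1 in an anchor, loop3722 was gained (log2 0.33), and loop3719 and loop3712 were not called (log2 -0.335 and 0.20). The loops with an end of RND3 or CDC42EP3 in an anchor were not called (log2 0.29 and -0.09). Neither were loop32170 and loop32183, which have an end of RUNX1 in an anchor (log2 0.41 and 0.09). At megakaryocyte and platelet genes the 2 lost loops lay at ITGB3 (loop29727, log2 -0.91) and PLEK (loop3734, -0.36). The 4 gained lay at ITGA2, CD9, THBS1 and MEIS1.

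Late gained loops met one another at their anchors. Of the 697, 126 (18.1%) shared an anchor with another late gained loop, in 58 groups joined by 64 shared anchors, and 9 groups had 3 or more loops. By the mirrored rule for loss, 10 of 248 late lost loops (4.03%) shared an anchor with another of their kind, as did 29 of 270 loops (10.7%) gained at both 6 h and 72 h; the sets differ in size, and sharing becomes more likely as a set grows, so the shares are given side by side without a test. Of the 64 shared anchors 0 also held a late lost loop and 1 (1.56%) a loop gained at both times, where 1.61% and 1.71% of the 30584 anchors of all loops past the minimum did, so counts this small are near the background. An end of a protein-coding gene lay in 15 of the 64 (23.4%), in 199 of all 1326 late gained anchors (15.01%) and in 20.8% of the anchors of all loops.

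The largest group held 4 loops between BCL6 and the far side of LPP on chromosome 3, over 1220 kb. BCL6 encodes a transcriptional repressor of B cell and myeloid development, and LPP a LIM domain protein of focal adhesions. From the anchor with the start of BCL6 (chr3:187740001-187750000), loop7907 reached 230 kb, loop7910 550 kb and loop7913 1210 kb, and loop7916 joined a start of LPP to the far anchor of loop7913. The most deeply counted, loop7913, had 34.1, 36.3, 47.9 and 49.6 scaled counts at 0 h, 37.9, 42.9, 52.9 and 33.9 at 6 h, and 77.3, 73.6, 75.3 and 74.9 at 72 h. Its 72 h libraries lay within 4 scaled counts of each other, far above the rest. loop7907 had 18.5, 25.8, 23.3 and 34.9, then 23, 25.4, 25.7 and 26.6, then 44, 61.2, 43 and 36.1, and loop7910 had 19.2, 17.2, 23.3 and 14.6, then 18, 30.3, 15.7 and 8.46, then 37.8, 35.3, 37.7 and 30.5. In both the lowest 72 h library was just above the highest earlier one. loop7916 was the weakest, with 14.2, 12.4, 14.7 and 11.3 at 0 h, 16, 18.5, 4.29 and 14.5 at 6 h, and 21.6, 27, 23.7 and 31.4 at 72 h. The ratios of the 4 ran from 1.79 to 1.97. Of the 4 other loops at the BCL6 anchor, which were not chosen by their counts, loop7909 rose at 72 h (log2 0.60, edgeR adjusted p = 0.00921), and loop7908, loop7911 and loop7912 did not pass the test, with log2 changes of -0.02, 0.02 and 0.25.

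Beside EGFR, 3 late gained loops met at chr7:55250001-55260000. Besides loop16165 these were loop16166, with 32.7, 29.6, 30.7 and 31.5 scaled counts at 0 h, 41.9, 35.1, 28.6 and 27.8 at 6 h, and 73.7, 66.4, 67.8 and 65.6 at 72 h, and loop16167, with 28.4, 20.1, 25.8 and 20.3, then 22, 29.3, 31.4 and 21.8, then 67.4, 58.1, 60.2 and 48.1. Both have their other anchor in the body of EGFR, and in both every 72 h library was far above the others (ratios 2.20 and 2.47). Other loops of the region also rose in the edgeR fit: loop16164, inside loop16165, by a log2 of 1.87 ± 0.18 (SE, adjusted p = 1.74e-16), loop16160, outside it at the shared anchor chr7:54990001-55000000, by 1.54 ± 0.16 (adjusted p = 6.83e-15), and loop16162 by 0.44 (adjusted p = 0.00497). loop16164 had also risen at 6 h (log2 0.88 ± 0.22, adjusted p = 0.00496), which the late gained loops beside it had not been allowed to do by their rule. The other 2 anchors with as many held 3 late gained loops each, in the body of SGIP1 on chromosome 1 (loop789, loop790 and loop791, ratios 1.98 to 2.29) and near PAPPA and ASTN2 on chromosome 9 (loop19685, loop19686 and loop19687, ratios 2.11 to 2.78). Other groups of 3 included those at EPB41L4A on chromosome 5, at GNGT1, BET1 and COL1A2 on chromosome 7, and on chromosomes 4 and 12 with no gene end in an anchor.

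**Figure D3:**
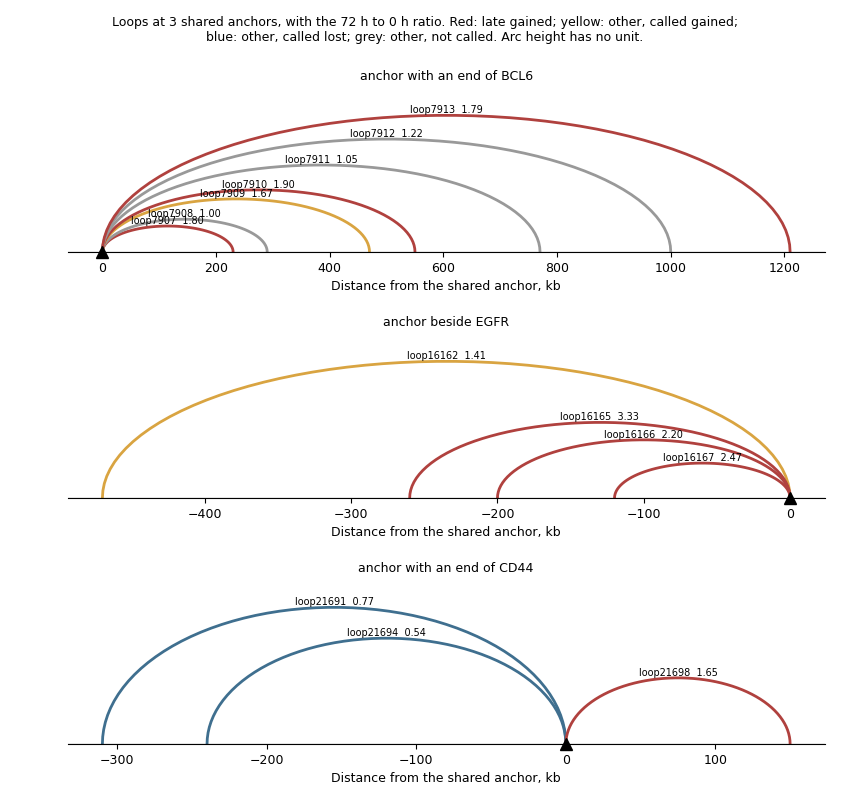
Loops that meet at 3 shared anchors (black triangles), drawn as arcs by distance in kb from the shared anchor (x axis), with the ratio of 72 h to 0 h beside each name; arc height has no unit. At the anchors at BCL6 and EGFR 3 loops each were late gained, and at CD44 loop21698 was late gained (1.65) while loop21691 and loop21694 were lost (0.77 and 0.54). loop21697, which was also lost, meets loop21698 at its other anchor and is not drawn.

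Whether loops that were not chosen changed at the same anchors was asked over the whole table. Besides the members, 1497 loops shared an anchor with a late gained loop, and 1256 of them had enough counts for the test. At 72 h 437 of these (34.8%) were gained and 59 (4.70%) lost, where 16.7% and 16.9% of all loops tested were. Their median log2 change was 0.32, and 976 (77.7%) had a positive change, where 50.97% of all loops tested did. At 6 h 38 (3.03%) were gained and 17 (1.35%) lost, where 2.34% and 4.07% of all loops tested were, and the median was 0.10. Among loops that share an anchor with another loop but not with a late gained one, 13.3% of 17377 were gained and 17.6% lost at 72 h. Loops at anchors of late lost loops went the other way, with 7.27% of 468 gained and 29.5% lost, and those at anchors of loops gained at both times had 34.8% of 514 gained and 4.86% lost. With DESeq2 252 (20.1%) of the loops at late gained anchors were gained, against 9.74% of all loops, and within replicates 1 and 2 alone 271 (20.7% against 9.92%). The fit keeps replicates 3 and 4 as separate libraries; with the pair summed at every time, a setting chosen after seeing the data, 422 (31.9%) were gained, against 15.4% of all loops. With a correction for loop length 319 (25.4%) were gained, against 13.7% of all loops. Without loops that end within 50 kb of a late gained partner, a setting chosen after seeing the data, 423 of 1221 (34.6%) were gained. Loops that share an anchor are not independent of one another, and no test was made of the shares.

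By late gained loop, 539 had at least 1 such neighbour that was tested, with a median of 2 and at most 12. Of these 539, 330 had a neighbour that was gained, 53 had one that was lost, 16 of them both, and 172 neither. No matching counts were made for other loops with as many neighbours, so these counts have no background beside them. The shares also differed by position where no anchor was shared. Of 452 loops that lay inside a late gained loop, with no anchor within 1 bin of its anchors, 26.3% were gained and 6.42% lost; of 518 that lay around one, 25.7% were gained and 3.47% lost. Of 458 that crossed one, 12.01% were gained and 9.17% lost, and of 19588 that overlapped none, 11.5% were gained and 19.7% lost. Loops inside and around late gained loops were thus gained more often, and all 3 kinds lost less often, than the 16.7% and 16.9% of the whole table. The part of loop length in these shares was not tested.

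**Figure D4:**
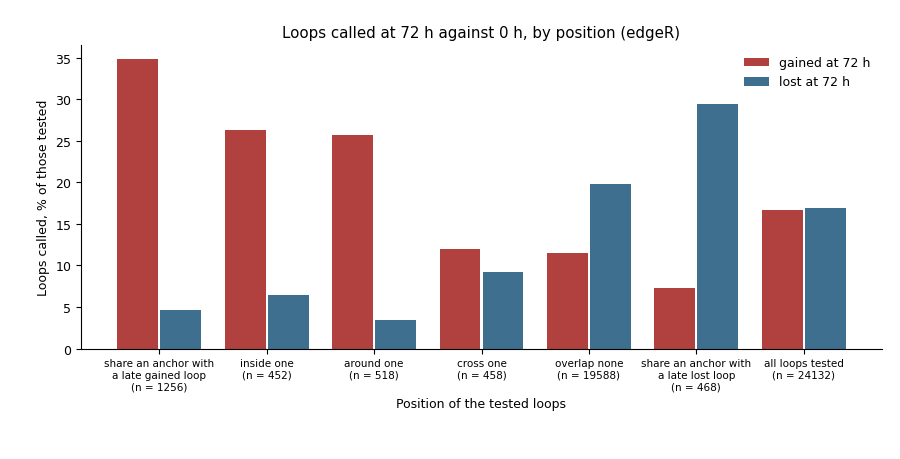
Share of tested loops called gained (red) or lost (blue) at 72 h against 0 h by edgeR (y axis, %), by their position relative to late gained loops (x axis, with the number tested). Of loops that share an anchor with a late gained loop 34.8% were gained and 4.70% lost, and of those that overlap none 11.5% and 19.7%; the last pair of bars, all loops tested, includes the late gained loops.

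The 5 neighbours with the smallest p that rose were loop24597, loop16164, loop27596, loop16160 and loop23371. loop24597 on chromosome 12 shared its anchor (chr12:114660001-114670000) with late gained loop24599, which spans TBX3, a T-box transcription factor gene. It had 11.4, 7.64, 6.14 and 13.5 scaled counts at 0 h, 12, 18.5, 7.15 and 24.2 at 6 h, and 64.7, 66.4, 43 and 50.8 at 72 h, a log2 change of 2.25 ± 0.20 (SE, edgeR adjusted p = 1.84e-19), and exceeded every late gained loop in size. Its partner loop24599 had 17.7, 16.2, 18.4 and 21.4, then 15, 18.5, 17.2 and 18.1, then 27.9, 37.3, 34.4 and 37.9, a ratio of 1.86. loop27596 on chromosome 15 shared an anchor with late gained loop27595 (ratio 2.51) and changed by 1.43 ± 0.15 (adjusted p = 2.82e-15). loop23371 on chromosome 12 shared one with late gained loop23363 (ratio 2.75) and changed by 1.49 ± 0.16 (adjusted p = 1.21e-14). At 6 h, of these 5, only loop16164 passed the test.

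At some anchors a late gained loop stood beside a loop that fell. At the CD44 anchor (chr11:35230001-35240000), where loop21698 was late gained toward SLC1A2, loop21694 toward PDHX went from 56.1, 40.1, 55.2 and 49.6 scaled counts at 0 h and 61.9, 58.6, 58.6 and 52 at 6 h to 27, 22.8, 21.5 and 37.9 at 72 h. It fell by 0.88 ± 0.16 on the log2 scale (SE, edgeR adjusted p = 6.11e-06). No 72 h library of loop21694 overlapped the earlier ones. loop21697 joins the other end of CD44 to the SLC1A2 anchor of loop21698. It also fell (log2 -0.58 ± 0.175 SE, edgeR adjusted p = 0.00559). Of the 3 tested neighbours of loop21698, 0 were gained and 3 were lost. At CCND1, the cyclin D1 gene, late gained loop22054 (200 kb, ratio 1.67) met loop22043, which fell by 1.08 ± 0.16 (adjusted p = 1.64e-08) and shared its other anchor with late gained loop22044 (580 kb, ratio 1.71). loop22044 and loop22043 start at the same anchor and end 40 kb apart. The anchor of loop5271 on chromosome 3 also held loop5264, which fell by 1.03 ± 0.13 (adjusted p = 4.00e-11) and had fallen at 6 h (log2 -0.39 ± 0.12, adjusted p = 0.0348). The other neighbours with the smallest p that fell were loop16980 on chromosome 7 (log2 -0.84, adjusted p = 2.62e-07), beside loop16975 (ratio 1.58), and loop33079 at BCOR on chromosome X (-0.61, adjusted p = 3.44e-05), beside loop33081 (ratio 1.78). loop33079 had fallen by 0.62 already at 6 h (adjusted p = 0.000460).

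To measure the change in libraries that had no part in the choice, the rule was applied to replicates 3 and 4 alone and the chosen loops were read in replicates 1 and 2. It took 941 loops, 303 of them among the 697, and 938 were tested. In replicates 1 and 2, 388 of these (41.4%) were gained at 72 h against 0 h, where 9.92% of all loops were, with a median log2 change of 0.57 and a positive change in 876 (93.4%). Over all loops 50.02% had a positive change there. At 6 h 2 (0.213%) were gained, where 0.667% of all loops were, and the median was 0.11, above the 0.01 of all loops. Between 6 h and 72 h 242 (25.8%) were gained, where 5.06% were over all. Replicates 3 and 4 count as 1 sample at 0 h and 72 h, so loops chosen in replicates 1 and 2 and read in 3 and 4 are given by their medians alone. The median log2 change of these 966 loops was 0.54 at 72 h and 0.05 at 6 h, and 899 (93.1%) had a positive change at 72 h, where 50.96% of all loops did. The same loops can be set side by side in the libraries that chose them and in the others. For the 935 chosen in replicates 3 and 4 and tested in both, the median at 72 h was 0.66 in replicates 3 and 4 and 0.57 in replicates 1 and 2. For the 964 chosen in replicates 1 and 2 it was 0.69 there and 0.54 in replicates 3 and 4. At 6 h the medians were 0.00 and 0.11 for the first set, and -0.01 and 0.05 for the second. DESeq2 called 59 of the 938 gained (6.29%, against 0.763% of all loops), with a median log2 change of 0.61.

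The sets of replicates also allowed a test of whether the change differed between them. In a fit by edgeR with a term for replicates 1 and 2 against 3 and 4 and its interaction with time, 1 of 24132 loops (0.00414%) passed at 72 h and 0 at 6 h, and 1470 and 1345 had an unadjusted p under 0.05. The late gained loops were chosen on agreement between these libraries, so they are not counted in it. In the fit of all libraries, which is no test of loops chosen on them, 679 of the 697 were called gained at 72 h against 0 h, where 16.7% of all loops were, 0 were called at 6 h in either direction, where 6.41% were, and 649 were called gained at 72 h against 6 h, where 10.7% were.

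Late gained loops were as long as others in the median, 280 kb against 280 kb for all loops past the minimum, and had more of the longest. Their lengths ran from 40 kb, in 6 loops, to 3110 kb in loop16619, which ended in DOCK4, and 64 (9.18%) were 1000 kb or longer, against 3.90% of all loops, 0.403% of late lost loops and 6.67% of loops gained at both times. By length the rule took 2.54% of loops up to 100 kb, 3.56% from 100 to 200 kb, 2.58% from 200 to 400 kb, 2.59% from 400 to 800 kb, 5.78% from 800 to 1600 kb and 10.0% above. The share of all tested loops called gained at 72 h, of which late gained loops are a part, went from 12.4% up to 100 kb to 44.0% above 1600 kb. By mean raw count the rule took 2.90% of loops at 10 to 20, 3.97% at 20 to 40, 3.21% at 40 to 80 and 0.856% at 80 or more. The most deeply counted late gained loop, loop16805 with an anchor in PODXL, which encodes the sialomucin podocalyxin, had a mean raw count of 184 and went from 152 ± 8.70 scaled counts at 0 h (SD, n = 3) and 161 ± 18.9 at 6 h (n = 4) to 240 ± 15.7 at 72 h (n = 3).

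Chromosomes differed widely in their share. Chromosome 5 held 69 late gained loops of 1342 (5.14%), chromosome 2 held 60 (4.41%) and chromosome 13 held 22 (4.25%), whereas chromosome 19 held 1 of 642 (0.156%), chromosome 22 held 2 (0.597%), chromosome 18 held 3 (0.968%) and chromosome 17 held 14 (1.67%). Over all tested loops 24.6% were gained at 72 h on chromosome 5, 22.9% on chromosome 2, 17.1% on chromosome 13, 9.48% on chromosome 18, 8.499% on chromosome 22, 7.45% on chromosome 17 and 4.17% on chromosome 19, so that chromosome 13 was near the 16.7% of the whole table. An end of a gene lay in an anchor of 27.7% of late gained loops, of 35.9% of all loops past the minimum, of 46.4% of late lost loops and of 24.8% of loops gained at both times. Transcription starts lay in an anchor of 104 (14.9%), against 20.4%, 23.8% and 10.4% in that order. Anchors with no protein-coding gene over either were about as frequent, 22.5% against 21.0% of all loops. The part of gene content, length and chromosome in one another was not tested.

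**Figure D5:**
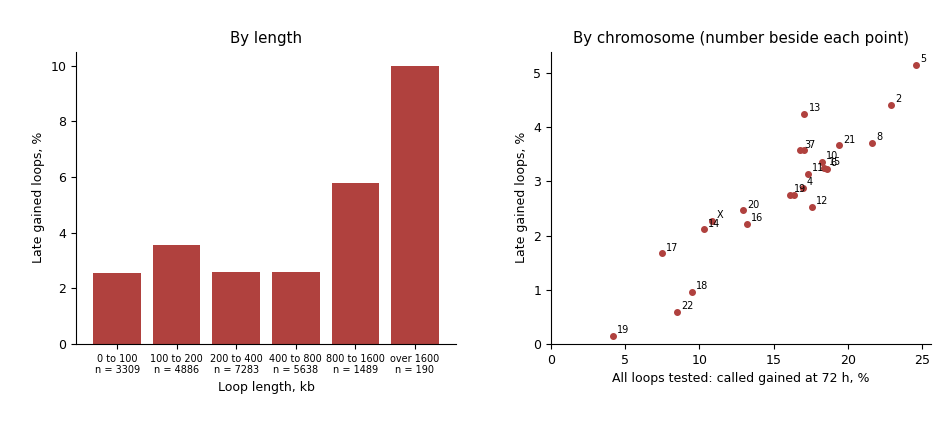
Share of loops past the count minimum that were late gained (y axes, %), by loop length in kb (left, bars, with the number of loops) and by chromosome (right, points) against the share of all tested loops called gained at 72 h (x axis, %, late gained loops included). The share rises to 10.0% above 1600 kb, and chromosomes 5 (5.14%) and 19 (0.156%) lie at the ends.

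By the class in the authors' deposited table, 1000 of the 33914 loops were gained. Of the 697 late gained loops 323 (46.3%) had that class, 374 were static and 0 lost. The authors' deposited table gave log2 changes for 592 of them, with medians of 0.01 at 6 h and 0.62 at 72 h. The authors' deposited adjusted p was under 0.05 for 429, of which 106 were static. Of the other static loops 152 had a deposited adjusted p of 0.05 or more and 116 had none. For the other classes and the adjusted p no share over all loops was counted. The class stands beside the counts that the rule used, in the same table, so it is no independent measurement.

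At the edges of the rule the loops passed gradually into others. Just inside the fold limit were loop3884 (72 h ratio 1.5002) and loop12509 (1.5016), and just outside loop20751 (1.4993) and loop27658 (1.4967). Just inside the low bound at 6 h were loop13820 (6 h ratio 0.8719) and loop11391 (0.8725), and just outside loop9968 (0.8693) and loop20283 (0.8689). At the high bound loop19609 and loop4048 (both 1.1492) were just inside and loop2901 (1.1505) and loop11199 (1.1508) just outside. For the separation of the libraries, loop12984 (lowest 72 h library 1.0001 times the highest earlier one) and loop1531 (1.0004) were just inside, and loop20601 (0.9999) and loop20011 (0.9997) just outside. With the separation and the fold met, 606 loops lay above the 6 h window and 82 below it, so late gained loops were 697 of 1385 that met both. The window therefore divides a range, with more loops on its upper side than on its lower.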

How the data were processed

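The authors deposited a table of raw contact counts for loops with anchors of 10 kb, with 1 of 30 columns per technical replicate, and no other column held values of a sample, per the file headers. Anchor positions, counted from 0 as deposited, are printed from 1. The table also holds log2 changes, an adjusted p-value and a class of each loop as the authors deposited them; how these were made, the aligner and the loop caller are not given in the sources used here. Juicer 1.5.6, DESeq2 and the build hg38 are named, without a role, per the submitters' processing notes.

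Here columns were summed into 12 libraries. Loops past filterByExpr (minimum count 10, minimum total 15; 24132 loops) entered 1 model of time alone, by the quasi-likelihood test of edgeR 4.0.16 (R 4.3.3; TMM scaling, Benjamini-Hochberg at 0.05, prior count 2; the SE of a log2 change is the change over the root of F). No local background was subtracted. DESeq2 1.42.0, other scalings, filters and thresholds, a correction for loop length, within-replicate fits and leaving out each library were alternatives. The test was tried on simulated counts. Protein-coding genes, without strand, and promoters came from RefSeq, GRCh38.p14. The members and lists were chosen with earlier results of these data known. Loops named were the 15 largest ratios (the first 6 with every library), those at list genes, the 15 largest at gene ends, the edges of the rule and of length and count, the anchors with most members, and the 5 neighbours with the smallest p in each direction; others are said to be chosen later.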

Additional observations from a re-analysis of the deposited data

Results flagged for a closer look

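In 2 of the 31 named late gained loops a single library at 6 h lay far from the other 3, by Dixon's range test. In loop10510 at PALLD the lowest was replicate 4 at 9.67 scaled counts, where the others lay between 19.5 and 20.01. In loop9168 at MEPE the highest was replicate 1 at 26.9, where the others lay between 18.5 and 19.3. Chance gives about 1 in 20 such groups, here 1.55, so 2 is near that number.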

How the results depend on the processing

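The rule gave 149 members with a fold of 2, and between 528 and 989 under the other settings, 435 of the 697 being kept with the length correction and 585 when replicates 3 and 4 were added together at all times, a setting chosen after seeing the data. Leaving out 1 library gave 685 to 820. Among all loops tested 8105 loops were called at 72 h, and 4977 by DESeq2, 5210 at a threshold of 0.01, 4947 within replicates 1 and 2, 3973 within 3 and 4 (which at 0 h and 72 h differ by no more than sampling noise, so that p-values there are too small), and 6554 to 8477 without 1 library. Of the loops sharing an anchor with a member, 437 gained and 59 lost became 252 and 39 by DESeq2, 282 and 39 at 0.01, 271 and 33 within replicates 1 and 2, 212 and 27 within 3 and 4, and 790 and 124 of 2419 with neighbouring bins. Without 1 library they were 328 to 444 and 53 to 61. In each of these the share gained was above that of all loops, and the share lost below. At 6 h the 55 called became 10 by DESeq2, 35 with the length correction, 14 at 0.01, 14 within replicates 1 and 2, 5 within 3 and 4, 109 with neighbouring bins, and 21 to 52 without 1 library (21 without 0 h replicate 1, 30 without 6 h replicate 2, 34 without 0 h replicate 3 or 6 h replicate 4, and 35 without 6 h replicate 1). Of the 938 loops chosen in replicates 3 and 4, 388 were gained in 1 and 2, and 59 by DESeq2 and 255 at 0.01. Gene ends within 10 kb of an anchor gave 370 loops in place of 193 (53.1%, against 63.6% of all loops past the minimum). The cause of these differences was not tested.

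Biological replicate numbers do not mark shared cultures in the labels, and same-numbered libraries deviated together only weakly (correlations of 0.01 to 0.12, the own number being the best match in 11 of 12). A fit with the replicate block called 8560 loops, and 448 gained among those sharing an anchor with a member. Depth limits single loops most: counting error alone puts 10 contacts between 4.80 and 18.4 (exact Poisson, 95%).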

Other observations

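Further late gained loops lay at genes of other kinds; they were chosen after their values had been seen and are given as values only. At EDN1, which encodes the vasoconstrictor peptide endothelin 1, loop13301 had 22.7, 29.6, 18.4 and 18 scaled counts in replicates 1 to 4 at 0 h, 25.9, 31.2, 25.7 and 18.1 at 6 h, and 45.8, 59.1, 45.2 and 41.6 at 72 h (ratio 2.16). At a start of PRDM1, a transcriptional repressor of lymphoid and myeloid cells, loop14553 had 14.2, 16.2, 11 and 18, then 23, 18.5, 12.9 and 13.3, then 23.4, 33.2, 42 and 25 (2.08). The lowest 72 h library of loop14553, at 23.4, was barely above the highest at 6 h, at 23, and in loop13301 the times were further apart.

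In the cluster of chemokine receptor genes on chromosome 3, loop5434 ended at CCR1 with 68.1, 56.3, 65.05 and 69.8 at 0 h, 78.8, 73.2, 57.2 and 62.9 at 6 h, and 130.3, 133.8, 136.6 and 128.5 at 72 h (2.04). Next to it loop5435 joined CCR3 to CCR2 with 79.5, 94.5, 85.9 and 97.98, then 88.8, 107.4, 94.3 and 84.6, then 172.6, 159.7, 158.1 and 151.6 (1.79). Both were deeply counted and their 72 h libraries close together. At the HOXD genes, homeobox transcription factors, loop4393 reached 1020 kb from HOXD8 and HOXD9 (ratio 1.94) and loop4394 510 kb from HOXD8 (1.76).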
